A study of Mus musculus with 4 samples.

Results

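Neural lineage transcripts were examined in brain endothelial cells (ECs) that had been sorted from the cerebral cortex of mouse embryos by CD31, a surface protein of ECs. A list of 36 marker genes of neurons, neural progenitors, astrocytes and the oligodendrocyte lineage was matched by gene symbol to the deposited table. Of these, 32 were among the 12693 gene symbols of the table. *Eomes*, *Tbr1*, *Gad1* and *Olig2* were not listed there. The study compared 2 wild-type samples with 2 samples of *Foxq1* conditional knockout (cKO) embryos (genotype FOXQ1fl/fl;Tie2-Cre). All samples were of C57BL/6 strain and embryonic day 18, and only the cKO samples carry the Tie2-Cre transgene that deletes the floxed *Foxq1* gene. The methods describe controls as littermates without Cre, so the alleles of *Foxq1* in the wild-type samples are not given by the label. The label gives the tissue as brain. Tie2-Cre acts in ECs and is known to act in blood cells as well. The labels do not say whether a sample came from 1 embryo or from several.

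Cortical neurons and glia arise from radial glia, progenitors that line the ventricle and express nestin (*Nes*), the lipid-binding protein *Fabp7* and the Notch target *Hes5*. Their daughters switch on proneural factors of the NeuroD family and then cytoskeletal and synaptic proteins of neurons. Late in gestation the same progenitors begin to make astrocytes, under the NFI factors *Nfia* and *Nfib*, and oligodendrocyte precursors. In the cortex, the foetal vessel wall is contacted by radial glial processes and later by astrocyte endfeet. In bulk samples such as these, fewer cells of a type and less RNA per cell cannot be told apart.

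The samples held between 15827166 and 21466436 reads on listed genes, and every listed gene had at least 1 read in each of the 4 samples, so a gene without reads in 1 sample is not listed. *Foxq1* itself, the targeted gene, had 353 and 297 normalized counts (reads divided by the size factor of the sample) in wild-type against 5.44 and 32.6 in *Foxq1* cKO samples (log2 fold change -4.47, standard error 1.04, unadjusted p 0.00507, adjusted p 0.857 from limma). On reads recovered from these counts, DESeq2 gave *Foxq1* an adjusted p of 0.00925 and edgeR one of 0.940. EC markers were at the top of the table: *Cldn5*, a tight junction protein of the blood-brain barrier, had a length-scaled level between 18175 and 20956 in the 4 samples. The length-scaled level is the number of reads divided by the exon length of the gene, scaled as TPM is to the same total in each sample, here over the listed genes. The exon length covers all annotated exons of a gene, so it can exceed that of a single transcript and then lowers the level. It was 16449 bases for *Map2* and 11694 for *Pax6*, against 1868 for *Tubb3*. All 20 genes of an EC list were listed, at a median percentile of 97.7 of length-scaled level over all listed genes. Pericyte markers were also high, with 9 of 12 genes listed at a median percentile of 97.1. For 1 value compared over 2 and 2 samples, the smallest two-sided p that an exact permutation test can give is 0.333.

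The 32 neural transcripts held a small part of the RNA. Their summed length-scaled level was 2957 and 2949.5 in wild-type against 2601 and 2905 in *Foxq1* cKO samples. The wild-type pair lay closer together than the *Foxq1* cKO pair, and both *Foxq1* cKO samples were below both wild-type samples. Relative to the summed level of the 20 EC genes in the same sample, this sum was 7.42% and 8.02% in wild-type against 7.76% and 7.85% in *Foxq1* cKO samples. By that measure the *Foxq1* cKO values lay within the range of the wild-type values. *Cldn5* alone held 18175 to 20956 of the EC sum, which was 33510 to 39837. Relative to the sum of the 9 pericyte genes, the neural sum was 36.9% and 36.6% in wild-type against 30.2% and 37.2% in *Foxq1* cKO samples. In reads, the 32 genes took 0.353% (95% Wilson interval 0.351% to 0.356%), 0.354% (0.351% to 0.356%), 0.305% (0.303% to 0.308%) and 0.333% (0.331% to 0.336%) of the reads, in the order wild-type 1 and 2, then *Foxq1* cKO 1 and 2. These intervals cover counting error only. Wild-type samples averaged 2953 ± 5.19 (SD, n = 2) on this summed level, and the mean of *Foxq1* cKO samples was 2753 ± 215 (SD, n = 2). The comparison gave an exact two-sided permutation p of 0.333, the smallest possible.

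Markers of progenitors and glia, not of neurons, made up most of this sum. The 14 listed genes of radial glia, astrocytes and the oligodendrocyte lineage held between 81.9% and 84.7% of the summed level of all 32 genes in each sample. The 16 listed neuronal genes held between 10.5% and 14.3%, and *Sox4* and *Sox11* the rest. *Fabp7* alone held between 29.6% and 34.4%, and together with *Ncan*, which encodes the matrix proteoglycan neurocan, between 43.7% and 46.8%. The ratio of neuronal to progenitor and glial sums was 15.0% and 15.9% in wild-type against 12.5% and 17.5% in *Foxq1* cKO samples, so the wild-type values lay within the range of the *Foxq1* cKO values.

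**Figure D1:**
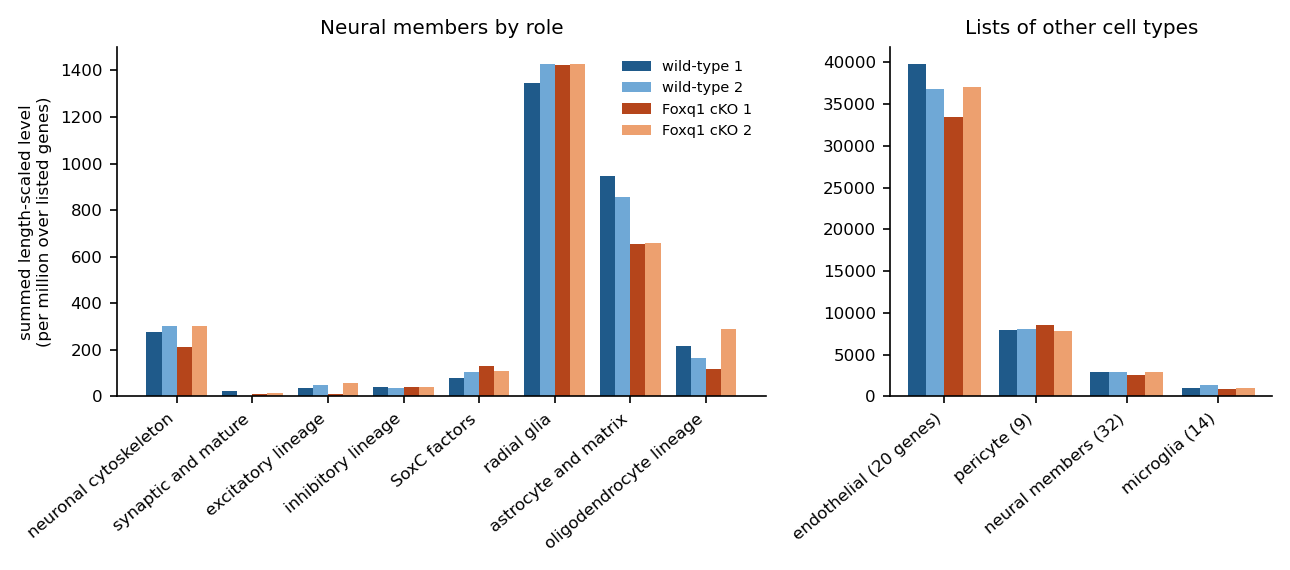
Bars give the summed length-scaled level (linear axis from 0) in each of the 4 samples, for the neural transcripts by role (left) and for whole lists (right). The radial glia bars are of like height at 1344 to 1429, the astrocyte and matrix bars are lower in both *Foxq1* cKO samples (654 and 661) than in both wild-type samples (945 and 858), and the EC list at 33510 and above stands far over the neural list at right.

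The neuronal transcripts were led by cytoskeletal genes of young neurons. *Tubb3*, the neuronal beta-tubulin, had a length-scaled level of 108 averaged over the 4 samples, which put it at percentile 86.5 of all listed genes. *Gap43*, a growth cone protein, followed at 73.3 (percentile 80.2). *Stmn2*, *Dcx*, *Mapt* and *Map2*, which encode regulators of microtubules, had mean levels of 29.1, 22.0, 21.7 and 19.6, near the middle of the table. Markers of mature neurons were lower on the same scale. *Snap25* and *Syt1*, components of synaptic vesicle fusion, had mean levels of 5.36 and 3.48, and *Rbfox3*, which encodes NeuN, had 4.61.

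Factors of the excitatory lineage were near the bottom of the table, except for *Neurod6*. Its mean length-scaled level was 25.8 (percentile 55.9), against 6.37 for *Neurod2*, 3.58 for *Neurod1* and 3.48 for *Bcl11b*, the factor of subcerebral projection neurons also named Ctip2. *Eomes*, of intermediate progenitors, and *Tbr1*, of deep-layer neurons, were 2 of the 4 genes not listed. Among inhibitory lineage genes, the homeobox factors *Dlx2* and *Dlx1* had mean levels of 21.1 and 14.0, and *Gad2*, an enzyme of GABA synthesis, had 3.24.

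Progenitor markers spanned nearly the whole range of the table. *Fabp7* had a mean length-scaled level of 917 (percentile 99.2), *Hes5* 209 (93.6), *Nes* 202 (93.2) and *Ptprz1*, a receptor phosphatase of radial glia and oligodendrocyte precursors, 76.1 (81.0). *Pax6* and *Sox2*, the transcription factors that define cortical progenitors, had 1.55 (percentile 3.02) and 1.36 (2.40). The level of *Sox2* was between 0.0634% and 0.238% of that of *Fabp7* in the same sample. *Nes*, *Sox4*, *Sox11*, *Nfia*, *Nfib* and *Pdgfra* are known in ECs or other vascular cells too, and without these 6 genes the sum over the list was between 6.23% and 6.98% of the EC sum.

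Astrocyte and matrix genes were well represented. *Ncan* had a mean length-scaled level of 379.8 (percentile 97.0). The brevican gene *Bcan*, the folate enzyme gene *Aldh1l1* and *Gfap*, which encodes the intermediate filament of astrocytes, had 102, 101 and 93.0, and *Nfia* and *Nfib* had 53.2 and 51.2. In the oligodendrocyte lineage, *Olig1* had 194 (percentile 92.9) while *Pdgfra*, the receptor of oligodendrocyte precursors, had 2.73 (7.41) and *Olig2* was not listed.

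**Figure D2:**
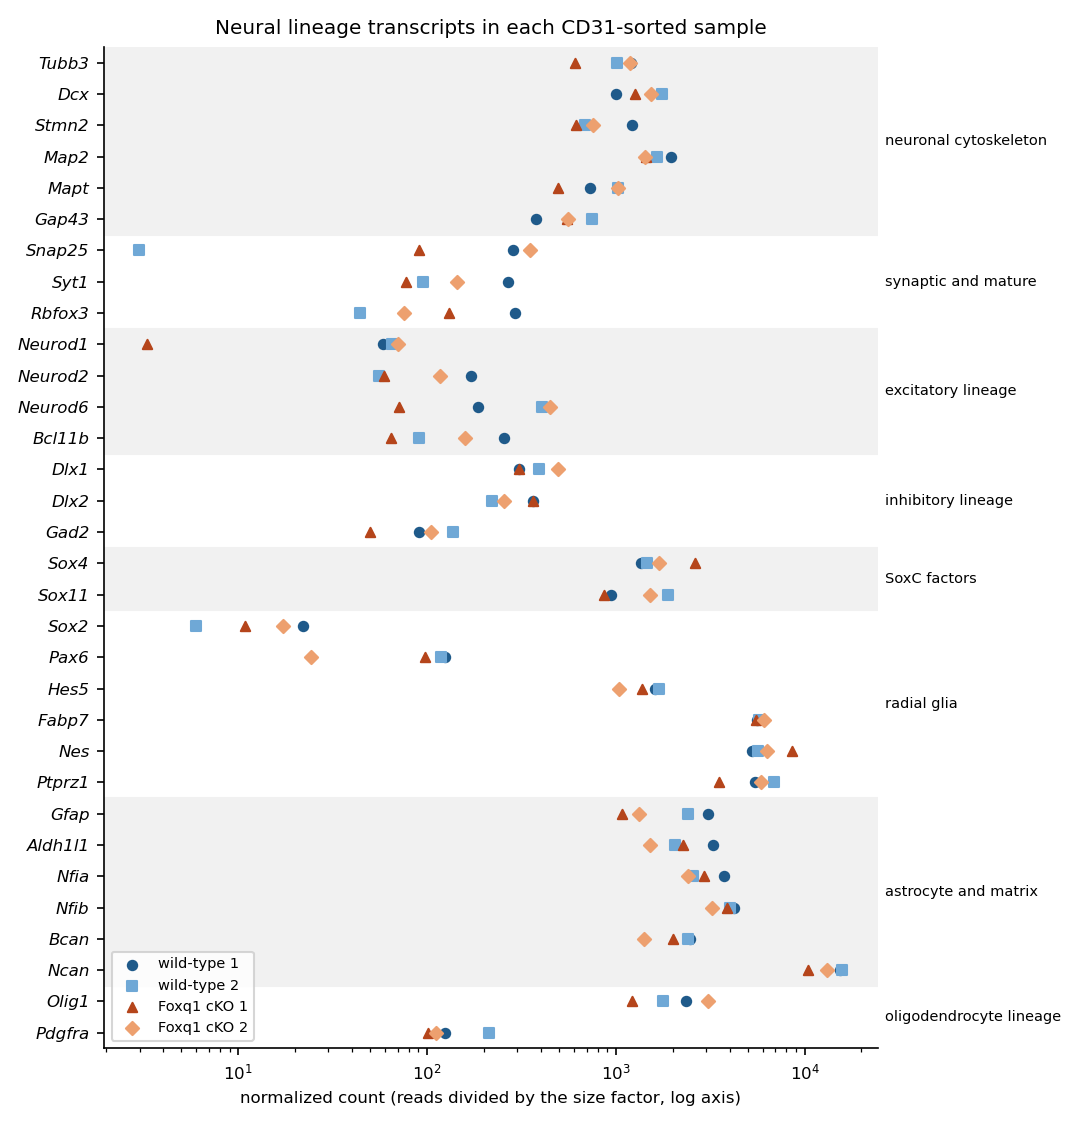
Each point is the normalized count of 1 gene in 1 sample (log axis), with genes ordered by role and the 4 samples told apart by colour and shape. Within a row, *Gfap* has both *Foxq1* cKO samples (1081 and 1329) well to the left of both wild-type samples (3073 and 2419.6), while *Snap25* ranges from 2.99 to 352 and *Fabp7* stays between 5499 and 6104.

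How firmly a level can be read depended on the gene's depth. For genes with a mean of 1000 to 3000 normalized counts, the median ratio of the higher to the lower replicate over all genes tested was 1.26 in wild-type and 1.20 in *Foxq1* cKO samples. For genes with a mean of 100 to 300 it was 1.79 and 1.58. The 7 neural genes in that lower range had median ratios of 2.80 and 1.99. The 11 neural genes with means of 1000 to 3000 had 1.27 and 1.42. The 5 with means over 3000 had 1.06 and 1.27, against 1.16 and 1.12 for all genes of that depth. Among the 16 neuronal genes 6 differed by over 2-fold between the wild-type samples and 6 between the *Foxq1* cKO samples, against 28.2% and 20.2% of all genes tested. Of the 14 progenitor and glial genes, 1 did so in wild-type and 2 in *Foxq1* cKO samples.

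Some neuronal genes were nearly lost in 1 library. *Snap25* had 284 and 2.99 normalized counts in wild-type, from 337 and 3 reads, and 90.4 and 352 in *Foxq1* cKO samples. *Neurod1* had 58.1 and 64.8 in wild-type but 3.27 and 70.2 in *Foxq1* cKO samples, from 3 and 69 reads in the latter. *Neurod6* had 187 and 406 against 70.8 and 446. For *Neurod1* and *Neurod6* the *Foxq1* cKO samples held both the lowest and the highest value, and for *Snap25* the lowest was wild-type 2 and the highest *Foxq1* cKO 2. The groups overlapped for all 3 genes. Across the list, *Foxq1* cKO 1 was the lowest of the 4 samples for 16 of 32 genes, against 24.7% of all genes tested, and it was the lowest for 9 of the 16 neuronal genes. In the other lists described below, this sample was the lowest for 11 of 20 EC genes and 17 of 34 further neuronal genes. The same held for 8 of 21 further progenitor and glial genes, 6 of 14 microglia and macrophage genes, 1 of 9 pericyte genes and 1 of 6 erythroid genes.

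**Figure D3:**
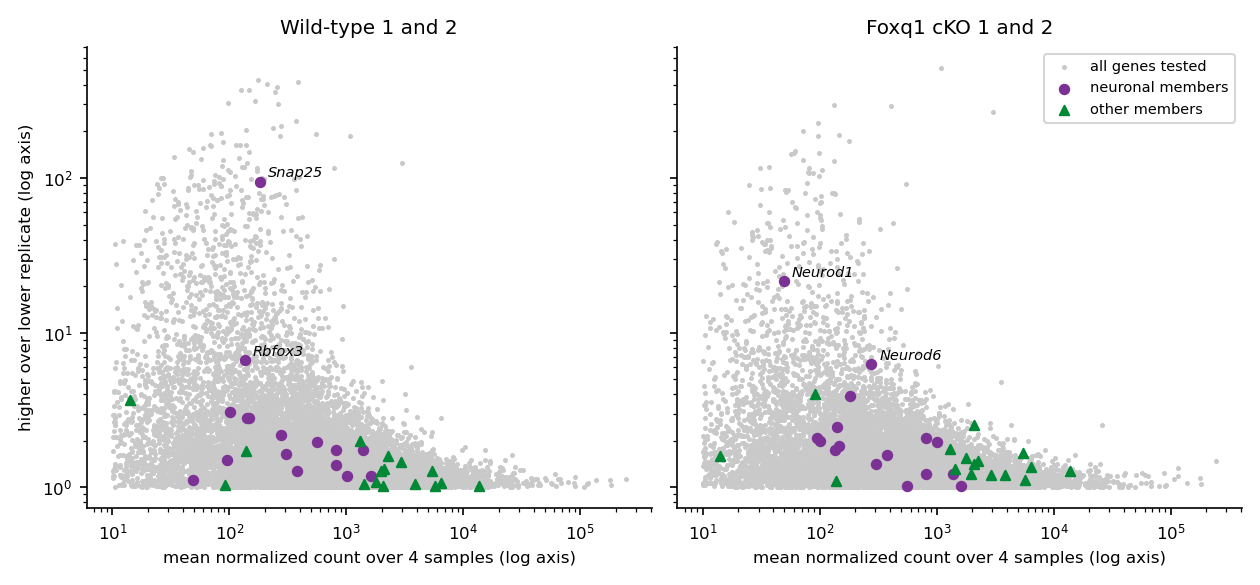
Each point is 1 gene, with its mean normalized count over the 4 samples on the x axis and the ratio of the higher to the lower replicate on the y axis (both log), for wild-type (left) and *Foxq1* cKO samples (right). Grey points are all 12472 genes tested, and ratios narrow from left to right. *Snap25* at a ratio of 94.9 in wild-type and *Neurod1* at 21.5 in *Foxq1* cKO stand above the other neural genes.

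The comparison of *Foxq1* cKO with wild-type samples asked whether endothelial deletion of *Foxq1* changed the RNA of these sorted cells. It was tested with limma on log2 of the normalized count plus 1, over 12472 genes with a mean of at least 10. All 32 listed neural genes passed this filter. The added 1 lowers the change of low genes, while a very low value in 1 library can enlarge it on the log scale. No neural gene was higher and 2 of 32 were lower at an unadjusted p under 0.05, where 5.22% of all genes tested were called, 2.17% as higher and 3.05% as lower in *Foxq1* cKO samples. The 2 genes were *Gfap* and *Ncan*, both of the astrocyte and matrix group. After Benjamini-Hochberg adjustment over all genes tested, limma called 0 neural genes and 0% of all genes, with 651 genes at an unadjusted p under 0.05. On reads recovered from the normalized counts, edgeR's quasi-likelihood test called 0 genes at an adjusted p under 0.05. DESeq2 called 59, of which 1 was a neural gene, *Gfap*.

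The log2 fold change was below 0 for 23 of the 32 genes, against 49.3% of all genes tested. Their median was -0.30, against 0.0086 over all genes tested, and without *Foxq1* cKO 1 it was 0.0025. Both *Foxq1* cKO samples were below both wild-type samples for 8 genes, against 18% of all genes tested, and above them for 2 genes, against 18% as well. The 8 lower genes were *Map2*, *Pax6*, *Hes5*, *Gfap*, *Nfib*, *Bcan*, *Ncan* and *Pdgfra*, and the 2 higher genes were *Nes* and *Sox4*. These shares also depended on level: of the 3844 genes with a mean of at least 1000 normalized counts 56.2% were below 0, and of the 16 neural genes among them 12 were. Of the same 3844 genes, 23.5% were lower without overlap and 4.66% were called lower. *Map2*, *Hes5*, *Gfap*, *Nfib*, *Bcan* and *Ncan* were among them.

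*Gfap* had the smallest p of the 32 genes. It had 3073 and 2419.6 normalized counts in wild-type against 1081 and 1329 in *Foxq1* cKO samples, from 3647, 2427, 993 and 1306 reads. The groups did not overlap, and the *Foxq1* cKO mean, 1205 ± 175 (SD, n = 2), was 43.9% of the wild-type mean, 2746 ± 462 (SD, n = 2). In limma this was a log2 fold change of -1.19 (standard error 0.250, unadjusted p 0.0031, adjusted p 0.857). DESeq2 gave an adjusted p of 0.0166 and edgeR one of 0.940, both with a log2 fold change of -1.19. Fits that left out any 1 of the 4 samples put it between -1.36 and -1.01.

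*Ncan* had 15459 and 15852 normalized counts in wild-type against 10364 and 13143 in *Foxq1* cKO samples. The wild-type samples were close together and both *Foxq1* cKO samples were below them. Its log2 fold change was -0.42 (standard error 0.151, unadjusted p 0.0307, adjusted p 0.857 from limma). Without *Foxq1* cKO 1 the log2 fold change was -0.25 with an unadjusted p of 0.171 from limma, and without wild-type 1 or wild-type 2 the unadjusted p was 0.0631 or 0.0844.

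The other genes of the astrocyte and matrix group lay on the same side of 0 without passing the test, and all 6 log2 fold changes of the group were below 0, with a median of -0.46. *Bcan* had 2467 and 2407 normalized counts in wild-type against 2007 and 1410.0 in *Foxq1* cKO samples, with no overlap and a log2 fold change of -0.53 (unadjusted p 0.0774). *Aldh1l1* had 3285 and 2059.7 against 2257 and 1523, where the groups overlapped. *Nfia* had 3741 and 2554 against 2913 and 2409.9, again with overlap. *Nfib* had 4240.1 and 4008 against 3883 and 3213, with no overlap, and both NFI genes had a log2 fold change of -0.22. The summed length-scaled level of the 6 genes was 945 and 858 in wild-type against 654 and 661 in *Foxq1* cKO samples, or 72.9% of the wild-type mean. Relative to the radial glia sum of the same sample, this was 70.3% and 60.1% in wild-type against 45.9% and 46.3% in *Foxq1* cKO samples. Without *Gfap* and *Ncan* the ratio was 28.5% and 21.5% in wild-type against 21.7% and 15.9% in *Foxq1* cKO samples, and the groups overlapped.

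The 300 bases around the annotated start of a gene are given by RefSeq for 26 of the 32 neural genes. The 250 bases upstream of the start are shown for *Gfap* (chr11:102897201-102897450, minus strand) and *Ncan* (chr8:70120845-70121094, minus strand), because these were the 2 genes called. Both are read 5′ to 3′ on the strand of the gene in GRCm38.p6, a later build than mm9, on which the reads were aligned. Capitals mark the motif TTGGCA of NFI factors.
*Gfap*: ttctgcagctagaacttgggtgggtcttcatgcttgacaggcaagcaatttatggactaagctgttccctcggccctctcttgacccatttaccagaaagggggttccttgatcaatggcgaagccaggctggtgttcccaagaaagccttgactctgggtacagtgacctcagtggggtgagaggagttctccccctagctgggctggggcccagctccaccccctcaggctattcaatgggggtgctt
*Ncan*: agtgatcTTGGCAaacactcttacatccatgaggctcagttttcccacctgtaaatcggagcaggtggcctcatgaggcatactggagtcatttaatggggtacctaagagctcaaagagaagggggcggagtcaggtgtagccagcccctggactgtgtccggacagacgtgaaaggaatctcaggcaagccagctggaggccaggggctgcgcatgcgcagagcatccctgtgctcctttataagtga
Several motifs were searched on both strands in these 250 bases, namely TGTTTA, a core bound by many forkhead factors, TTGGCA, bound by NFI factors, and CAGATG, an E-box of proneural factors. GTTTC, the motif that the study names for FOXQ1, was added after the other counts were seen. The 26 genes had 29 windows, since some have more than 1 start. TGTTTA was found in 0 of these 29 windows, against 3952 of all 32851 windows. GTTTC was found in 8 of the 29 (27.6%), against 39.7% of all windows. TTGGCA was found in 7 of the 29 windows (24.1%), each of another gene (*Dcx*, *Gad2*, *Ncan*, *Neurod2*, *Neurod6*, *Rbfox3* and *Sox4*), against 12.3% of all windows. CAGATG was found in 5 (17.2%), those of *Fabp7*, *Gad2*, *Neurod2*, *Nfia* and *Pdgfra*, against 14.4%. The *Gfap* window held none of the motifs, and such matches are a description of the letters in these windows.

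Radial glia genes did not share a direction. *Fabp7*, the most abundant of the list per length, had 5596 and 5731 normalized counts in wild-type against 5499 and 6104 in *Foxq1* cKO samples, a log2 fold change of 0.03 (standard error 0.151, unadjusted p 0.835, adjusted p 0.980 from limma). *Nes* had 5293 and 5639 against 8608 and 6317, without overlap, and a log2 fold change of 0.43 (standard error 0.192, unadjusted p 0.0641, adjusted p 0.857 from limma). *Hes5* had 1608 and 1693 against 1374 and 1038, also without overlap, and a log2 fold change of -0.47 (unadjusted p 0.127). Both *Foxq1* cKO samples thus lay above wild-type for *Nes* and below it for *Hes5*, and neither gene passed the test. *Ptprz1* had 5437 and 6891 against 3517 and 5888, and its groups overlapped. The *Foxq1* cKO samples of *Pax6* were far apart at 98.0 and 24.4, against 124 and 119 in wild-type. For *Hes5*, an exon of a gene on the opposite strand overlaps 31.8% of the exon length, and whether reads were counted by strand is not given in the sources used here.

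*Sox4* and *Sox11*, SoxC factors of newborn neurons that are also expressed in many embryonic tissues, lay on opposite sides of 0. *Sox4* had 1352 and 1459.5 normalized counts in wild-type against 2630.2 and 1699 in *Foxq1* cKO samples, with a log2 fold change of 0.59 (standard error 0.285, unadjusted p 0.0834, adjusted p 0.857 from limma). An exon of *Gm26735* on the opposite strand overlaps 54.6% of the exon length of *Sox4*, which leaves the assignment of those reads uncertain. *Sox11* had 942 and 1880.2 against 861 and 1519, with overlap between the groups and a log2 fold change of -0.22.

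None of the 16 neuronal genes was called. Their log2 fold changes in limma ran from -1.84 for *Neurod1* to 2.41 for *Snap25*. The standard errors of these 2 genes were 1.48 and 2.00, and their unadjusted p 0.259 and 0.273 in limma. On recovered reads, *Neurod1* had -0.73 in edgeR and -0.74 in DESeq2, and *Snap25* had 0.62 in both. *Neurod6*, the most abundant excitatory factor, had -0.63 in limma (standard error 0.986, unadjusted p 0.548). Of the 6 cytoskeletal genes, *Map2* was the only one whose groups did not overlap, with 1952 and 1650.0 normalized counts in wild-type against 1447 and 1426 in *Foxq1* cKO samples (log2 fold change -0.32, unadjusted p 0.220). *Tubb3* had 1210.0 and 1017 against 607 and 1195, so that *Foxq1* cKO 1 alone was low (log2 fold change -0.38, standard error 0.400, unadjusted p 0.378, adjusted p 0.893 from limma). *Mapt* showed the same arrangement, with 731 and 1025 against 494 and 1026. *Dcx* had 1004 and 1755 against 1262 and 1533, *Gap43* had 377 and 745 against 549.8 and 561, and *Stmn2* had 1212 and 689.9 against 617 and 754. For *Dcx* and *Gap43* the *Foxq1* cKO values lay within the range of the wild-type values.

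Within the smaller neuronal groups every gene overlapped between the groups. *Syt1* had 268 and 95.7 normalized counts in wild-type against 77.3 and 143 in *Foxq1* cKO samples, and *Rbfox3* had 291 and 43.9 against 131 and 75.3. *Neurod2* had 171 and 55.8 against 58.8 and 117, and *Bcl11b* had 254 and 90.7 against 64.2 and 159. In both factors wild-type 1 was the highest sample. *Dlx1* had 308 and 394 against 308 and 495, and *Gad2* had 91.0 and 137 against 50.1 and 105. *Dlx2* had 366 and 221 against 366 and 256, a log2 fold change of 0.11 (standard error 0.546, unadjusted p 0.853). The median log2 fold change was -0.30 for cytoskeletal genes, -0.19 for synaptic genes, -0.61 for excitatory factors and 0.11 for inhibitory lineage genes. None of these 4 medians kept its direction in all fits that left out 1 sample. Without *Foxq1* cKO 1 the median was 0.094 for cytoskeletal genes and 0.22 for excitatory factors. For synaptic genes it was 1.16 without wild-type 1, 0.20 without *Foxq1* cKO 2 and -1.34 without wild-type 2. For inhibitory lineage genes it was below 0 in all 4 of these fits, from -0.26 to -0.011.

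In the oligodendrocyte lineage, *Olig1* had 2352 and 1776 normalized counts in wild-type against 1221 and 3071 in *Foxq1* cKO samples. The *Foxq1* cKO samples thus held both the lowest and the highest value, and the log2 fold change was -0.08 (standard error 0.449, unadjusted p 0.869). *Pdgfra* had 124 and 213 against 101 and 111, with no overlap and a log2 fold change of -0.61 (standard error 0.696, unadjusted p 0.412).

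**Figure D4:**
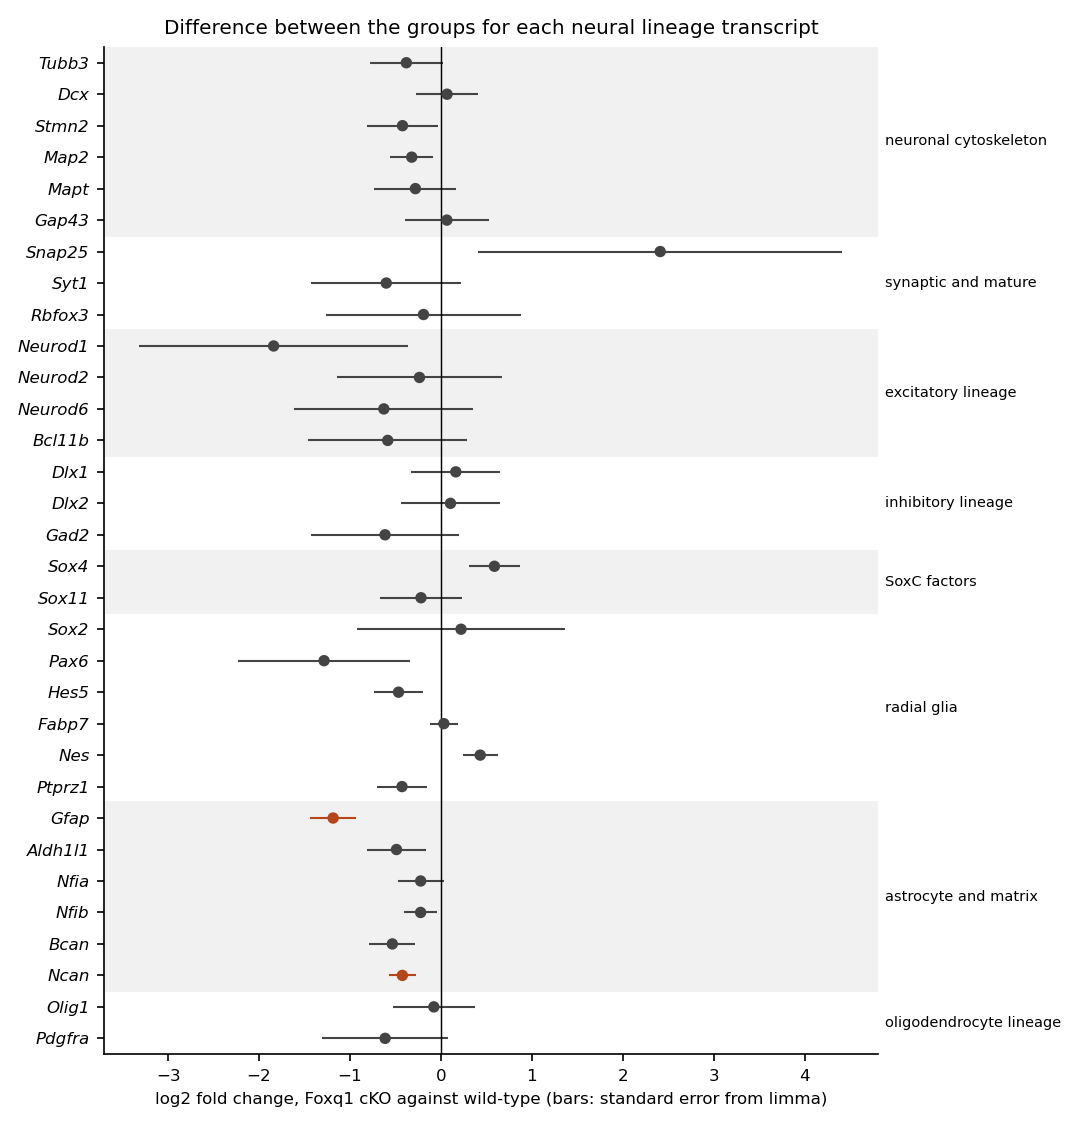
Points give the log2 fold change of *Foxq1* cKO against wild-type samples for each neural gene on the x axis, with the standard error from limma as bars, ordered by role. Genes with an unadjusted p under 0.05 are in rust red. All 6 astrocyte and matrix genes lie left of 0, with *Gfap* at -1.19, and the bars are widest for *Snap25* and *Neurod1*.

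A wider list of neural genes gave the background for these markers. Of 50 further neuronal genes 34 were listed and tested. Of these, 1 was called higher and 0 lower at an unadjusted p under 0.05, where 2.17% of all genes tested were called higher and 3.05% lower. The median log2 fold change was -0.20. The gene called was *L1cam*, an adhesion molecule of growing axons, with 69.9 and 15.0 normalized counts in wild-type against 226 and 228 in *Foxq1* cKO samples (log2 fold change 2.76, standard error 0.965, adjusted p 0.857 from limma). Of 26 further progenitor and glial genes 22 were listed and 21 tested, of which 0 were called higher and 3 lower (14.3%, against 3.05% of all genes tested). These were *Apoe*, a lipid carrier of astrocytes and macrophages, the membrane protein gene *Gpm6b* and *Tnc*, which encodes the matrix protein tenascin-C of radial glia. *Apoe* had 21224 and 19388 normalized counts in wild-type against 14576 and 12318 in *Foxq1* cKO samples (log2 fold change -0.60, unadjusted p 0.00425). The log2 fold changes of *Gpm6b* and *Tnc* were -0.52 and -0.78 (unadjusted p 0.0106 and 0.0317). The list did not move 1 way: 14 of the 21 log2 fold changes were below 0 and 7 above, with a median of -0.27. The groups did not overlap for 9 genes as lower (42.9%) and 3 as higher in *Foxq1* cKO samples, against 18% of all genes tested in each direction. Of all genes with a mean of at least 1000 normalized counts, 23.5% were lower without overlap and 4.66% were called lower. The 3 higher genes were *Lhx2*, a progenitor factor, *Aqp4*, the water channel of astrocyte endfeet, and *Gja1*, a gap junction gene of astrocytes, which were named after their values were seen. Their log2 fold changes were 0.98, 0.13 and 0.32 (unadjusted p 0.163, 0.576 and 0.136). The summed level of the 22 listed genes was 4307 and 4014 in wild-type against 3241 and 3153 in *Foxq1* cKO samples, and the groups did not overlap.

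Lists of other cell types were compared in the same way, and their part in the lower glial values was not tested. Of the 20 EC genes, 0 were called higher and 3 (15%, against 3.05% of all genes tested) lower, namely *Mfsd2a*, *Ly6c1* and *Flt1*. Their median log2 fold change over the 20 genes was -0.16. Of the 20, 15 were below 0 (75%, against 71.9% of the neural genes), and for 10 (50%, against 25% of the neural genes) both *Foxq1* cKO samples were below both wild-type samples. Among all genes tested, 49.3% were below 0 and 18% were lower without overlap. The latter share rose with level, to 30.6% of genes with a mean over 3000 normalized counts. The summed level of the 20 EC genes was 39837 and 36769 in wild-type against 33510.2 and 36989 in *Foxq1* cKO samples. The defining markers *Pecam1*, *Cdh5* and *Cldn5* had log2 fold changes of -0.23, 0.12 and -0.14. All 14 microglia and macrophage genes were listed, and 1 of them, *Csf1r*, was called lower at -0.83 (unadjusted p 0.0109 from limma). That was 7.14% of the list, against 3.05% of all genes tested. Of the 14 genes 7 were below 0 and 7 above, with a median log2 fold change of 0.013. The groups did not overlap for 3 as lower (21.4%) and 2 as higher, against 18% of all genes tested in each direction. Their summed level was 1070.4 and 1395 in wild-type against 879 and 1063 in *Foxq1* cKO samples. The 9 listed pericyte genes had 0 calls, a median log2 fold change of -0.03 and a summed level of 8009 and 8065 against 8608 and 7807. The 3 listed fibroblast genes of 5 had summed levels of 167 and 201 against 186 and 110.4, with 0 calls. For erythroid genes, with 6 of 7 listed and 0 calls, these were 4649.9 and 3582 against 3779.7 and 4911. For both lists the *Foxq1* cKO samples fell on either side of at least 1 wild-type sample.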

How the data were processed

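Groups of the RNA-seq samples (wild-type and *Foxq1* cKO, 2 each) and their replicate numbers came from the sample labels. The paper describes Smart-seq2 libraries of CD31-sorted cortical cells, while the extraction text of the labels names total RNA of brain. Per the labels, the submitters' processing notes name TopHat2 2.0.12, Bowtie2 2.2.3, HTSeq 0.6.0 and mm9. The authors deposited a normalized signal per gene, read counts divided by 1 size factor per sample. All values (100% in each sample, within 0.01) were whole multiples of 1 step, so reads were recovered. The 1207361 lines were collapsed to 12693 symbols, of which 12678 had a length in GENCODE M21 (GRCm38). The lowest total was 21 reads per gene.

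Groups were compared with limma 3.58.1 in R 4.3.3, by moderated statistics with a mean-variance trend on log2(value + 1) across all genes with a mean of at least 10, with Benjamini-Hochberg adjustment over all genes tested. It takes the place of the unpaired two-group comparison named in the study's methods. edgeR 4.0.16 and DESeq2 1.42.0 on recovered reads, other scalings, pseudocounts of 0.1 and 5, no filter, no trend, a replicate block and each sample left out in turn were alternatives. Nothing says that samples came from separate embryos or cultures, so p-values measure the spread between these samples. The main limma fit and the edgeR and DESeq2 fits were tried on simulated data beforehand. The permutation test and the other alternatives were not. The members and lists were chosen with earlier results of these data known. Every listed member is named, full statistics are given for those with an unadjusted p under 0.05 and for the leading genes of each role, and of other lists the genes with the smallest p are named, up to 3, besides *Pecam1*, *Cdh5*, *Cldn5* and *Foxq1*. Python 3.11.15 and pandas 2.3.3 made tables and figures with matplotlib 3.10.9.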

Additional observations from a re-analysis of the deposited data

How the results depend on the processing

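Of 288 values of the 32 genes over 9 alternatives that kept the 4 samples, 279 kept their direction and their side of an unadjusted p of 0.05, 2 became weaker (*Ncan* under quantile normalization and without a trend), 2 became stronger (*Nes* in DESeq2 and under quantile normalization) and 5 reversed. The reversed values were *Gap43* (-0.011 in edgeR and -0.015 in DESeq2), *Olig1* (0.060 in edgeR and 0.056 in DESeq2) and *Sox2* (-0.19 under quantile normalization), and the cause was not tested. *Gfap* stayed between -1.19 and -1.13 and under an unadjusted p of 0.05 in each of the 9. Higher neural calls numbered 1 instead of 0 in DESeq2 and under quantile normalization, and lower calls 1 instead of 2 under quantile normalization and without a trend. At an adjusted p under 0.05, DESeq2 called 59 genes, 1 of them neural, instead of 0, where the other alternatives with 4 samples called 0. The share of higher genes among the calls was 49.9% without a trend against 41.6%. The replicate numbers are shared between the groups, but the deviations of same-numbered samples correlated at 0.0325 over genes, so they were not treated as pairs. With the replicate block 693 genes were called at an unadjusted p under 0.05 instead of 651, 2 of them lower and 0 higher among the neural genes.

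With 1 sample left out, the lone sample of a group is assumed to vary like the other group. Calls over all genes then ranged from 66 to 983 higher (66 without *Foxq1* cKO 1, 983 without wild-type 2) and from 210.0 to 586 lower (again without these samples), and neural calls from 0 to 2 higher and from 1 to 4 lower. *Gfap* kept an unadjusted p under 0.05 in all 4 of these fits. The median log2 fold change of the 32 genes ranged from -0.42 to 0.0025. By group it ranged from -1.59 to 0.22 (the latter without *Foxq1* cKO 1) for excitatory factors, from -0.26 to -0.011 for inhibitory lineage genes, from -1.34 to 1.16 for synaptic genes, from -0.44 to 0.094 for cytoskeletal genes, from -0.34 to 0.026 for radial glia genes and from -0.57 to -0.24 for astrocyte and matrix genes. Of 128 single values 27 reversed, over 18 genes: *Tubb3* (-0.87 to 0.11), *Dcx* (-0.34 to 0.47), *Mapt* (-0.81 to 0.25), *Gap43* (-0.42 to 0.56), *Snap25* (-0.67 to 5.49), *Syt1* (-1.34 to 0.14), *Rbfox3* (-1.54 to 1.16), *Neurod1* (-3.87 to 0.19), *Neurod2* (-1.03 to 0.56), *Neurod6* (-1.95 to 0.69), *Bcl11b* (-1.32 to 0.15), *Dlx1* (-0.18 to 0.51), *Dlx2* (-0.26 to 0.47), *Sox11* (-0.72 to 0.28), *Sox2* (-0.64 to 1.08), *Fabp7* (-0.043 to 0.11), *Nfia* (-0.50 to 0.053) and *Olig1* (-0.74 to 0.59). Precision followed depth, as the median standard error over all genes tested was 1.06 on the log2 scale for means of 10 to 100 normalized counts and 0.179 for means over 3000.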

Other observations

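Markers that are commonly used together for a neural cell type differed widely in the reads behind them in all 4 samples. *Fabp7* had between 5051 and 6641 reads per sample and *Sox2* between 6 and 26. *Olig1* had between 1122 and 3019 reads and *Pdgfra* between 93 and 214. *Dlx1* and *Dlx2* had between 222 and 487 reads, while *Gad2* had between 46 and 137. These are reads on genes of different length and are given to show the depth behind each marker. In the further lists, 16 of 50 neuronal genes and 4 of 26 progenitor and glial genes were not listed.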
